A study of Homo sapiens with 2 samples.

Results

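The SPARC family is taken here as 7 genes of secreted matricellular proteins: SPARC, SPARCL1, SPOCK1, SPOCK2, SPOCK3, SMOC1 and SMOC2. All 7 were found by symbol, on 1 row each, among the 24462 gene symbols of the count tables. The tables come from RNA sequencing of H9, an established human embryonic stem cell line. One library was made from undifferentiated H9 cells (hESC). The other was made from neural precursor cells (NPC) that had been derived from H9 by growth together with MS5, a mouse stromal feeder line. No genotype, treatment, age, day of culture or passage is stated in the labels, and both groups share the H9 background and the same library kit. There was 1 library per group, so nothing below has a replicate check, no test between the groups was possible and no p-value is given. The set was selected on the values of these same 2 libraries, in which the high NPC reads of SPARCL1 were already known. All differences between the libraries are therefore descriptions.

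Matricellular proteins are secreted into the matrix but act on cells and on other matrix molecules more than they build the scaffold. Members of the SPARC family share a follistatin-like domain and a calcium-binding extracellular domain. SPARC, also called osteonectin, binds collagens and affects their assembly. SPARCL1, also called hevin or SC1, is known in the brain as an astroglial protein that promotes excitatory synapses, an activity that SPARC opposes. The SPOCK genes encode testicans, proteoglycans of the brain matrix that act on proteases. SMOC1 and SMOC2 encode calcium-binding proteins of the basement membrane, and SMOC1 is known as an antagonist of BMP signalling.

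The hESC file held 19686728 counted reads and the NPC file 24065750. Levels are given as CPM, read counts put on a common library size after scaling by the trimmed mean of M-values (TMM), with exact 95% Poisson intervals. A gene was called measured at 5 CPM or more in either library, which is about 86.9 hESC reads or 136 NPC reads. A ratio is NPC over hESC with an exact 95% counting interval, and a measured gene counts as higher or lower where its whole interval lay at least 2-fold away from equality. Such intervals cover counting error only, since the reads carry no molecular identifiers and are not independent molecules. Among 13535 measured genes, 19.6% were called higher and 19.8% lower (2649 and 2683 genes). With the plain library total in place of TMM, which adds 0.36 to every log2 ratio, 3679 were higher and 1796 lower. The set of genes that reach 5 CPM also changes with that scaling. Most pluripotency and neural progenitor markers went with the labels, which do not name neurons. In the NPC library all 8 pluripotency markers were lower. For 7 of them a higher call was out of reach, since they reached 5 CPM through hESC reads only. Of 7 measured neural progenitor markers 5 were higher (PAX6 and SOX1 farthest). SOX2 (1.33-fold) and NES (1.03-fold) were not called. PAX6 and SOX1 reached 5 CPM through NPC reads only, so a lower call was out of reach for them. Of 8 neuron markers 5 were higher and 1 lower, with 3 measured through NPC reads only and 1 through hESC reads only. The lower one, also the one measured through hESC reads only, was RBFOX3, 10.4-fold lower (7.97 to 14.1). In bulk RNA, more cells of a type and more RNA per cell cannot be told apart.

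Start-site sequences are shown for SPARCL1 and SPARC, the 2 most abundant members in the NPC library, and for SMOC1 and SMOC2, sister genes that lay on opposite sides between the libraries. Each is the 250 bases before the RefSeq start on GRCh38.p14, 5′ to 3′ on the gene's strand, with every CpG dinucleotide in capitals. The SPARC window lies at chr5:151686916-151687165 (minus strand), and that of SPARCL1 at chr4:87529377-87529626 (minus strand). The windows of SMOC1 and SMOC2 lie at chr14:69879166-69879415 and chr6:168440934-168441183 (both plus strand).
SPARC: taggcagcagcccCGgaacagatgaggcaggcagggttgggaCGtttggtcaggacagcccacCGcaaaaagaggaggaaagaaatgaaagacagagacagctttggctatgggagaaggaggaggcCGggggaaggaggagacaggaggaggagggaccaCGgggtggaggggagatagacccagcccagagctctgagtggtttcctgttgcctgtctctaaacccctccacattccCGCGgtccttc
SPARCL1: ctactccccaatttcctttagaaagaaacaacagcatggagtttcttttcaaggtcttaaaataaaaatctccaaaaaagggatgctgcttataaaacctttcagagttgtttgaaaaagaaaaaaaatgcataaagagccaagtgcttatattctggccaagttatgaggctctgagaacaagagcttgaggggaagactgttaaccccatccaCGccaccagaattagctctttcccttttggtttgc
SMOC1: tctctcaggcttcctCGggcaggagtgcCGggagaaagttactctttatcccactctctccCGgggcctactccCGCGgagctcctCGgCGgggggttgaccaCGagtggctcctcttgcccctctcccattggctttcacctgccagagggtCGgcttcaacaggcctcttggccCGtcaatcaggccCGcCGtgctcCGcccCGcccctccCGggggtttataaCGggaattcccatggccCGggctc
SMOC2: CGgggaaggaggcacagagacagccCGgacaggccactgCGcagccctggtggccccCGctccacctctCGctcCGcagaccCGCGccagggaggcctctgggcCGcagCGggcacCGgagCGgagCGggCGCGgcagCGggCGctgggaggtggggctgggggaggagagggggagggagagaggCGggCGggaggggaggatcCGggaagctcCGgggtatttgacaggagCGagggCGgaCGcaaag

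The SPARCL1 window was poor in CpG, with 1 CpG and 38.8% G and C, while the median of 35116 windows of this length was 11 CpG and 58.0%. As few CpG were found in 14.7% of all windows. The windows of SPARC, SMOC1 and SMOC2 held 7, 17 and 24 CpG. The string TATAAA was searched on both strands. It was found at 160 bases before the start in SPARCL1, on the gene's strand, and at 31 bases in SMOC1, on the opposite strand, and 10.7% of all windows hold it. The string GGAGGA, counted on both strands with overlaps allowed, occurred 5 times for SPARC, 2 times for SMOC2 and not for SPARCL1 or SMOC1, and 31.8% of all windows hold it. GGGCGG was found 2 times each for SMOC1 and SMOC2 and not for the other two, with a share of 42.6% of all windows. These strings are descriptions of the windows, and the counts do not show which start site was used. RefSeq windows were matched for 6 members, with 2 starts for SPOCK2 (5 and 11 CpG) and 3 for SPOCK3 (21, 20 and 10). No window was matched for SPOCK1.

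Of the 7 members, all were measured, 5 were called higher in the NPC library, 1 was called lower and 1 passed in neither direction. These counts stand beside backgrounds of 19.6% and 19.8% and, since the set was chosen on this contrast, nothing is read from them. The higher members were SPARC, SPARCL1, SPOCK1, SPOCK2 and SMOC1, the lower one was SMOC2, and SPOCK3 was not called. SPARC and SPOCK1 reached 5 CPM in both libraries. SPARCL1, SPOCK2, SPOCK3 and SMOC1 reached 5 CPM through their NPC reads only, so a lower call was out of reach for them. SMOC2 reached it through its hESC reads only, so a higher call was out of reach. The median log2 ratio of the members was 1.85, against -0.09 over all measured genes.

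Together the family took 5017 hESC reads and 62525 NPC reads, 0.0255% and 0.260% of all reads. Summed over the members the level went from 289 to 2298 CPM, 7.96-fold. Without SPARC and SPARCL1 the other five summed to 32.1 and 115 CPM.

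**Figure D1:**
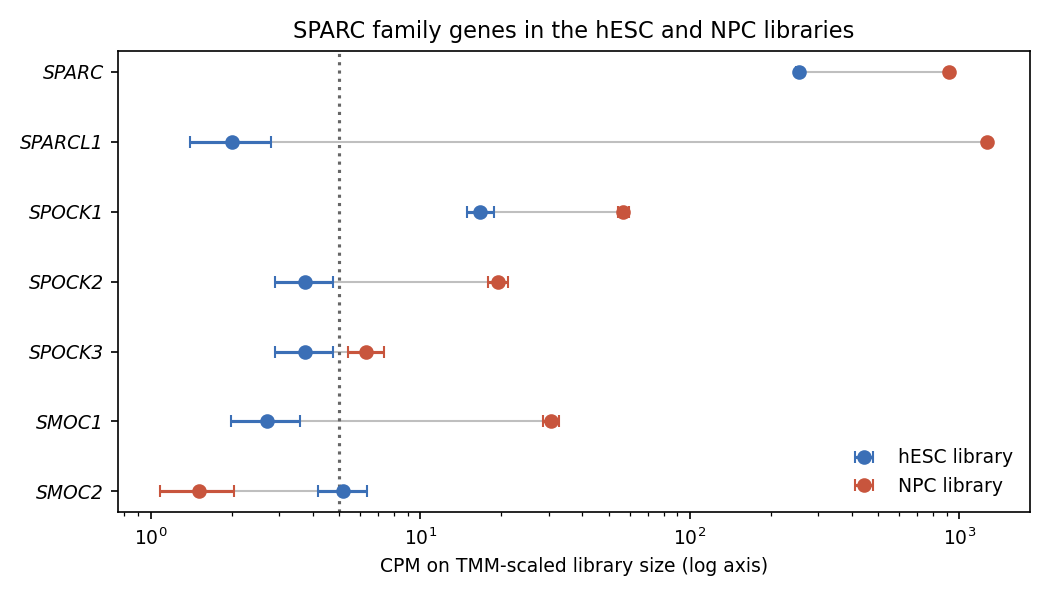
Level of each SPARC family gene in CPM (TMM-scaled, log axis) in the hESC library (blue) and the NPC library (red), with 95% Poisson intervals, and the 5 CPM filter as a dotted line. SPARCL1 spans the widest gap, from 2.01 to 1269 CPM, and SMOC2 alone lies lower in the NPC library.

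SPARC, the collagen-binding founder of the family, was abundant in both libraries. It had 4424 reads in the hESC library, 255 CPM (247 to 262), and 24893 reads in the NPC library, 915 CPM (904 to 927). The NPC library was the higher one and the intervals were far apart. The ratio was 3.60 (3.48 to 3.71), and the gene went from place 837 to place 77 when symbols were ordered by reads. Part of the SPARC transcript lies opposite an antisense gene, CLMAT3, which shares 272 of the 3671 stretches of 31 bases in the longest SPARC transcript of GENCODE 29. Another 2 stretches occur in AC091132.2, which brings the shared part to 274 (7.46%). CLMAT3 has no row in the count tables, and without a stated strand setting reads from either gene cannot be told apart.

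SPARCL1, the hevin gene, was below the 5 CPM filter in one library and among the most abundant genes in the other. It had 35 reads in the hESC library, 2.01 CPM (1.40 to 2.80), and 34509 reads in the NPC library, 1269 CPM (1255 to 1282). The ratio was 621 (453 to 905), and its width comes from the few hESC reads. By reads the gene stood at place 13802 among hESC symbols and at place 42 among NPC symbols. No stretch of 31 bases of its longest transcript occurred in a transcript of another gene.

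The SPARCL1 and SPARC genes exchanged places within the family. In the hESC library there were 126 SPARC reads for each SPARCL1 read, and in the NPC library 1.39 SPARCL1 reads for each SPARC read. Per kb of the longest transcript, the hESC level was 68.8 CPM per kb for SPARC and 0.673 for SPARCL1, and the NPC level was 247 for SPARC and 424 for SPARCL1. The SPARCL1 ratio between libraries exceeded the SPARC ratio 175-fold (126 to 252), a figure that does not depend on library scaling.

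SPARC made up 88.2% of the family's reads in the hESC library (exact binomial interval 87.3 to 89.1) and 39.8% in the NPC library (39.4 to 40.2). The share of SPARCL1 was 0.698% (0.486 to 0.969) of hESC and 55.2% (54.8 to 55.6) of NPC family reads. Per kb, the SPARC share was 89.1% and 35.5%, and that of SPARCL1 was 0.871% and 60.8%.

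**Figure D2:**
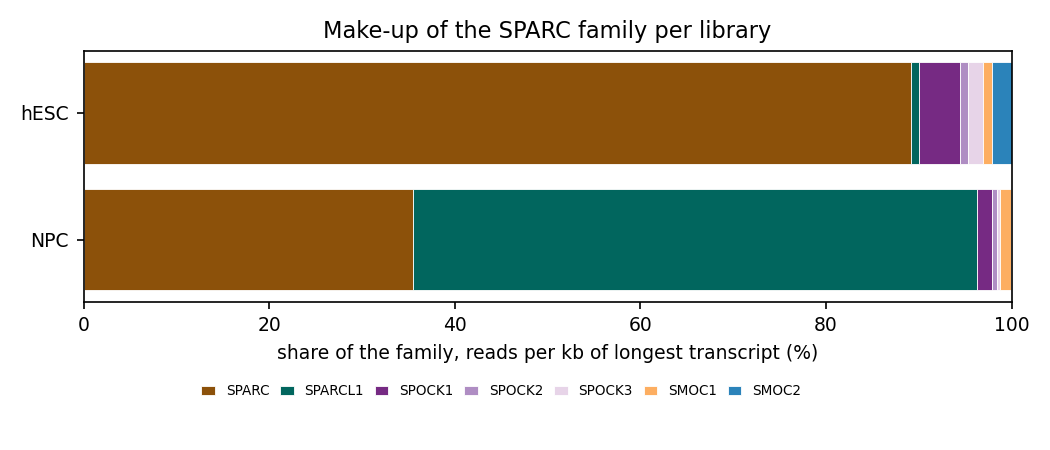
Share of each SPARC family gene in the family's reads per kb of longest transcript (%), 1 bar per library. SPARC fills 89.1% of the hESC bar, and SPARCL1 (60.8%) and SPARC (35.5%) fill nearly all of the NPC bar.

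Among the testicans, SPOCK1 was the most abundant in both libraries. SPOCK1, the gene of testican-1, had 291 hESC reads, 16.7 CPM (14.9 to 18.8), and 1545 NPC reads, 56.8 CPM (54.0 to 59.7). Its ratio of 3.39 (2.99 to 3.86) was close to that of SPARC: the SPARC ratio over the SPOCK1 ratio was 1.06 (0.928 to 1.21), an interval that includes equality.

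SPOCK2, the gene of testican-2, had 65 hESC reads, 3.74 CPM (2.89 to 4.77), and 531 NPC reads, 19.5 CPM (17.9 to 21.3). The NPC level was the higher one, with a ratio of 5.19 (4.03 to 6.86). SPOCK3, the gene of testican-3, also had 65 hESC reads, but 172 NPC reads, 6.32 CPM (5.41 to 7.34). Its Poisson intervals in the libraries did not overlap, yet the ratio of 1.68 (1.26 to 2.29) stayed under the 2-fold rule. The SPOCK2 ratio exceeded that of SPOCK3 by 3.09 times (2.06 to 4.62), and the SPOCK1 ratio exceeded it by 2.01 times (1.44 to 2.76).

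The SMOC genes moved apart. SMOC1 had 47 hESC reads, 2.70 CPM (1.99 to 3.60), and 834 NPC reads, 30.7 CPM (28.6 to 32.8), a ratio of 11.2 (8.45 to 15.6). SMOC2 had 90 hESC reads, 5.18 CPM (4.16 to 6.36), and 41 NPC reads, 1.51 CPM (1.08 to 2.04), which is 3.41-fold lower (2.35 to 5.10). SMOC2 was thus the higher of the pair in the hESC and SMOC1 in the NPC library. In the hESC library there were 1.91 SMOC2 reads per SMOC1 read, and in the NPC library 20.3 SMOC1 reads per SMOC2 read, so that their ratios differed 39.0-fold (23.7 to 64.2). SMOC2 lay just over the filter at 5.18 CPM. It was not called with the library total (log2 ratio -1.41 in place of -1.77), under which it fell below the filter.

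**Figure D3:**
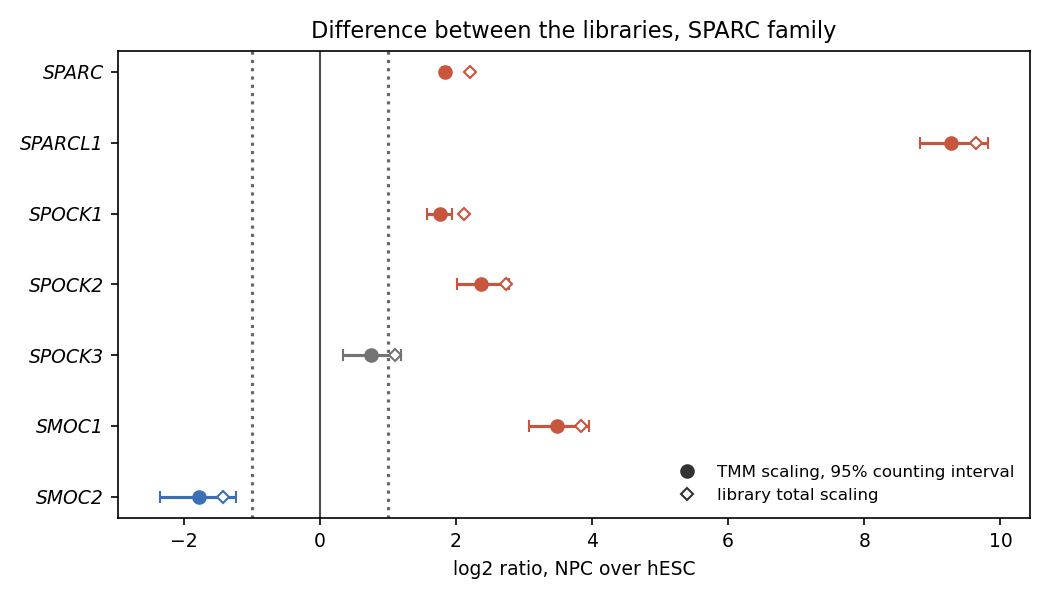
Log2 ratio of NPC over hESC for each SPARC family gene with TMM scaling (filled circles, 95% counting intervals) and with the library total (open diamonds). Dotted lines mark 2-fold in each direction, red genes were called higher, blue lower and grey not called. The 5 red intervals lie wholly above 2-fold, and that of SPOCK3 crosses the line.

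Ordered per kb of longest transcript, the hESC library had SPARC (68.8 CPM per kb) first, then SPOCK1 (3.45), SMOC2 (1.64), SPOCK3 (1.22), SMOC1 (0.738), SPOCK2 (0.687) and SPARCL1 (0.673). From SMOC2 downwards each gene's interval overlapped with that of the next, and SPARC and SPOCK1 each stood clear of the gene after them. In the NPC library the order was SPARCL1, SPARC, SPOCK1 (11.7 CPM per kb), SMOC1 (8.36), SPOCK2 (3.58), SPOCK3 (2.07) and SMOC2 (0.478), and no neighbours overlapped.

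None of the members shares a stretch of 31 bases with another member in GENCODE 29. Apart from SPARC, no member shared one with any other gene. Overlapping genes were RNA5SP171 for SPOCK3 and RPL7AP6 for SMOC1, and neither has a row in the count tables. The members lie on 5 chromosomes, with SPARC and SPOCK1 both on chromosome 5 and SPARCL1 and SPOCK3 both on chromosome 4.

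**Figure D4:**
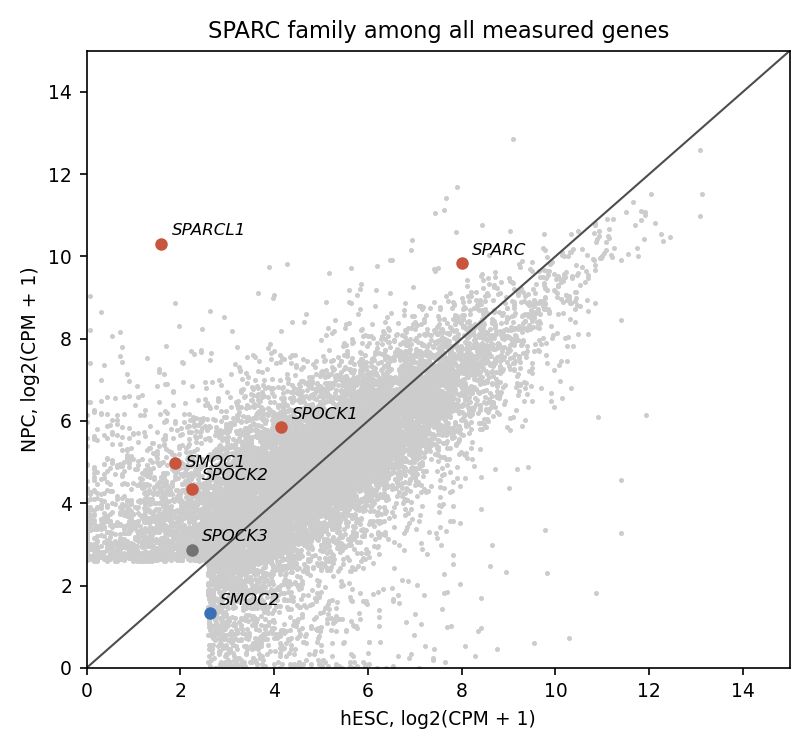
NPC against hESC level, log2(CPM + 1), of all 13535 measured genes (grey) with the SPARC family on top (red called higher, blue called lower, dark grey not called) and the line of equal level. SPARCL1 lies far above the line at 2.01 and 1269 CPM, and SMOC2 is the one member below it.

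The symbols with the most similar levels were found by distance on log2(CPM + 1) over the 2 libraries, a weak measure with 2 values per gene. Nearest to SPARC were FAT1, an atypical cadherin gene, with 276 and 690 CPM (distance 0.42), and MARCKS, with 179 and 840 CPM (0.52). SPARCL1 had no close neighbour, and the nearest were DLK1 with 2.70 and 469 CPM (distance 1.47) and IGFBP5 with 5.18 and 408 CPM (1.93). SPOCK1 lay beside BTG1 and KIAA2026, SPOCK2 beside KLHL29 and TTC12, SPOCK3 beside ZNF69 and TRIM52-AS1, SMOC1 beside LPAR1 and CPEB2, and SMOC2 beside HEYL and STAMBPL1. For these 5 members between 82 (SMOC1) and 361 (SPOCK3) symbols lay within a distance of 0.5, against 1 for SPARC and 0 for SPARCL1.

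The lists of related genes that follow have the same limits as the members. The background over all measured genes was 19.6% higher and 19.8% lower with TMM, and a gene that reached 5 CPM in 1 library alone could be called in 1 direction alone. With the library total every log2 ratio is 0.36 larger, so over all genes too more were higher and fewer lower. The shares of 19.6% and 19.8% do not apply to counts given below for that or another setting. Relatives of the family that carry a follistatin-like domain are secreted or membrane proteins outside the 7 members. Of 7 measured, 3 were higher and none lower, with a median log2 ratio of 1.30. The 3 higher genes all reached 5 CPM through NPC reads only, so a lower call was out of reach for them. With the library total 5 were higher, and with a filter at 20 CPM none of 3 measured was. FSTL5 had 3 hESC and 490 NPC reads, a ratio of 89.6 (35.5 to 508), and IGFBP7 was 9.53-fold higher (6.43 to 15.4). FSTL1, another follistatin-like gene, had 222 and 428 CPM and did not pass. The SPARC ratio exceeded that of FSTL1 by 1.87 times (1.78 to 1.96).

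Collagens that SPARC binds were higher in part. Of 8 measured, 5 were higher and none lower, with a median log2 ratio of 1.79. COL3A1, a fibrillar collagen gene, had 11 hESC and 7837 NPC reads, a ratio of 435 (254 to 912), and the cartilage collagen gene COL2A1 was 7.72-fold higher (6.79 to 8.84). COL3A1 reached 5 CPM through NPC reads only, so a lower call was out of reach for it. COL1A1 had 250 and 183 CPM and COL4A1 154 and 110 CPM, and neither passed. There were 1.65 SPARC reads per COL4A1 read in the hESC library and 8.29 in the NPC library. Per read of the 8 collagens together there were 0.332 and 0.551 SPARC reads. The SPARC ratio thus exceeded that of the summed collagens by 1.66 times (1.60 to 1.72). Taken singly, the ratios of COL1A1, COL1A2, COL4A1 and COL4A2 were below that of SPARC. Against COL3A1 it went the other way, from 402 SPARC reads per COL3A1 read to 3.18. The SPARC ratio was also below those of COL2A1 (0.465 times, 0.405 to 0.532) and COL5A2 (0.700 times, 0.644 to 0.761). Against COL5A1 the interval included equality (0.925 times, 0.844 to 1.01).

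Genes of collagen processing and cross-linking went both ways, with 3 higher and 2 lower of 12 measured (3 and 1 with the library total). Their median log2 ratio was -0.10, and 0.26 with the library total. BMP1, the procollagen C-proteinase gene, was 8.79-fold higher (7.19 to 11.0) and the lysyl oxidase-like gene LOXL1 3.23-fold higher (2.74 to 3.83). PCOLCE, which enhances that proteinase, was 3.38-fold lower (2.76 to 4.16) and LOXL2 2.79-fold lower (2.49 to 3.15).

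Among genes for receptors and uptake of SPARC, 3 of 7 were measured, none was higher and ITGB5, an integrin subunit gene, was 2.83-fold lower (2.67 to 3.01). VCAM1, a cell adhesion receptor gene, had 1 hESC and 132 NPC reads, a ratio of 56.4 (14.9 to 3357). At 4.85 CPM it lay just under the filter. With a filter at 1 CPM, no filter or ribosomal protein genes removed, VCAM1 was the 1 gene of the list called higher. With the point ratio alone the 1 higher gene was ITGAV, another integrin subunit gene. It had 57.2 and 118 CPM, a ratio of 2.06 (1.92 to 2.21). With the library total 2 of 4 were higher and 1 was lower. Growth factors that SPARC binds or modulates split, 2 higher and 3 lower of 7 (median log2 ratio -1.11), and 2 higher and 1 lower with the library total. TGFB2 was 54.2-fold higher (37.1 to 86.6) and TGFB3 33.9-fold higher (20.1 to 68.7). PDGFB was 14.0-fold lower (10.6 to 19.2) and FGF2 2.82-fold lower (2.55 to 3.13). TGFB2 and TGFB3 reached 5 CPM through NPC reads only, and PDGFB through hESC reads only, so each could be called in that direction alone.

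For hevin, partner genes at the synapse and other factors of astroglial synapse formation were listed. Of 12 measured, 5 were higher and 3 lower (median log2 ratio 0.95), and 7 were higher and 2 lower with the library total. The neurexin gene NRXN3 was 6.89-fold higher (5.37 to 9.11). It reached 5 CPM through NPC reads only, so a lower call was out of reach for it. NLGN1, a neuroligin gene, had 10.1 and 20.8 CPM and did not pass. The thrombospondin gene THBS2 was 6.51-fold lower (5.44 to 7.87) and the glypican gene GPC4 4.55-fold lower (4.36 to 4.76).

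Proteases controlled by testicans and their partners had 2 higher and 1 lower of 7 measured (median log2 ratio 0.35), and 3 higher and none lower with the library total. TIMP2, a protease inhibitor gene, was 4.76-fold higher (4.44 to 5.12), and MMP14, the membrane protease MT1-MMP that testicans act on, 2.75-fold higher (2.49 to 3.05). MMP24, another membrane-type protease gene, was 2.44-fold lower (2.14 to 2.77). CTSL, the cathepsin L gene, had 35.3 and 40.4 CPM and did not pass. Of 3 measured proteases that cleave SPARC or hevin, CTSB was 3.80-fold higher (3.58 to 4.05), and MMP9 and ADAMTS4 were 21.2-fold (11.4 to 49.8) and 6.99-fold (5.16 to 9.77) lower. MMP9 and ADAMTS4 reached 5 CPM through hESC reads only, so a higher call was out of reach for them. No gene of the 6 proteoglycan linkage enzymes was called, and the most abundant, FAM20B, had 60.7 and 55.3 CPM. With the library total 1 of these 6 was higher.

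In the BMP pathway that SMOC proteins antagonise, 9 of 16 measured genes were higher and none lower, with a median log2 ratio of 2.15, and 11 were higher with the library total. Of the 16, 6 reached 5 CPM through NPC reads only, ID4, SMAD9 and NOG among them, so a lower call was out of reach for these. ID4, a BMP target, was 65.8-fold higher (53.0 to 83.7), and SMAD9, a BMP signal transducer, 21.5-fold higher (15.1 to 32.7). The list also holds other BMP antagonists, and one of them, NOG, was among the higher genes, 5.26-fold (3.84 to 7.54). Other matricellular proteins outside the SPARC family split evenly, 4 higher and 4 lower of 12 measured. Their median log2 ratio was -0.23, and 0.12 with the library total. SPON1, the F-spondin gene, was 55.0-fold higher (46.0 to 67.0) and TNC, the tenascin-C gene, 48.7-fold higher (43.7 to 54.6). SPP1, the osteopontin gene, was 11.8-fold lower (9.79 to 14.3) and CTGF 7.72-fold lower (6.96 to 8.61). SPP1 reached 5 CPM through hESC reads only, so a higher call was out of reach for it.

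**Figure D5:**
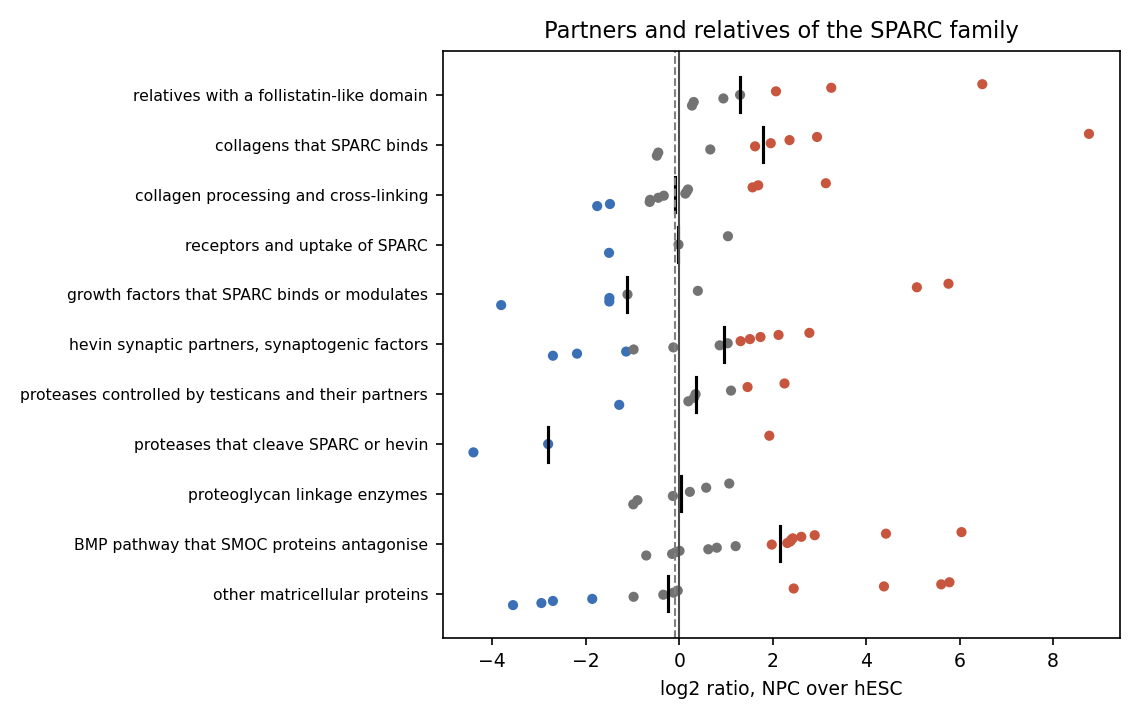
Log2 ratio of NPC over hESC for each measured gene of 11 lists of partners and relatives of the SPARC family (red called higher, blue lower, grey not called). Black bars are list medians and the dashed line is the median of all measured genes (-0.09). The BMP list and the collagens have the medians farthest to the right, 2.15 and 1.79.

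Markers of cell types in which SPARC or SPARCL1 is known to be abundant were read beside these results. Of 11 measured stroma and fibroblast markers 8 were higher and 2 lower. Among the higher ones 5 reached 5 CPM through NPC reads only, so a lower call was out of reach for these. With a filter at 20 CPM 5 markers were higher. The summed level of the list was 789 CPM (hESC) and 1146 CPM (NPC). DCN and LUM had 303 and 91 NPC reads, against 4 and 1 in the hESC library. COL3A1 was among the higher genes, and FAP alone was at 0 in the hESC library. LUM and FAP were below the filter. THY1 and TAGLN were lower, 11.3-fold (10.4 to 12.3) and 5.80-fold (5.27 to 6.40). The share of mouse feeder RNA among the SPARC family's reads was not tested.

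Of 9 astroglia markers 6 were measured, 3 higher and 2 lower (3 and 1 with the library total), and their sum was 659 and 468 CPM. S100B, SLC1A3 and SLC1A2 were higher, 45.8-fold (28.1 to 87.0), 4.61-fold (4.09 to 5.22) and 3.22-fold (2.62 to 4.01). S100B reached 5 CPM through NPC reads only, so a lower call was out of reach for it. ALDOC and GJA1 were lower, 10.5-fold (8.94 to 12.5) and 2.54-fold (2.44 to 2.64). GFAP, AQP4 and ALDH1L1 had 44, 15 and 13 NPC reads, all below the filter. Endothelial and pericyte markers summed to 187 and 49.8 CPM, with 2 of 5 measured genes lower (TIE1 and KDR) and none higher. TIE1 reached 5 CPM through hESC reads only, so a higher call was out of reach for it. PECAM1, CDH5 and VWF had 10, 9 and 8 NPC reads. Choroid plexus markers summed to 20.9 and 229 CPM, with 3 of 4 measured genes higher. TTR, KCNJ13 and CLIC6 reached 5 CPM through NPC reads only, so a lower call was out of reach for them. TTR was at 146 NPC reads (5.37 CPM) and OTX2 at 5418. OTX2 alone gave 14.4 CPM of the hESC sum and 199 CPM of the NPC sum. Of the 7 listed choroid plexus markers 3 were below the filter. The part of these cell types in the SPARCL1 level was not tested.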

How the data were processed

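RNA of 1 hESC and 1 NPC library was sequenced. The authors deposited whole-number read counts by gene symbol, not normalized, 1 column per library. Per the submitters' processing notes, TopHat, edgeR and hg19 were used, with no role stated. For the counting tool, strand setting, annotation and multiply mapped reads, the choice is not given in the sources used here. Of 25737 rows, 286 symbols stood on several. The row with most reads was kept, which set aside 0.0878% of hESC and 0.107% of NPC reads. No member was among them.

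TMM factors (edgeR 4.0.16, R 4.3.3) were 0.884 and 1.13. Point ratios have 0.5 added to each count. Intervals are Clopper-Pearson or, between 2 genes, conditional exact (scipy 1.17.1, Python 3.11.15). Levels per kb use the longest GENCODE 29 transcript, whose build differs from hg19. Ratio code was tested on simulated data.

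The members and the 18 gene lists were chosen with earlier results of these data known. Named genes were the 7 members, up to 2 higher and 2 lower genes by interval bound per list (else the most abundant), and the 2 nearest symbols per member. A gene under this rule is not reported here. Other genes named, such as FSTL1, COL1A1, COL1A2, COL4A1, COL4A2, COL5A1, COL5A2, ITGAV, NLGN1, CTSL, VCAM1, NOG, SOX2, NES, KCNJ13, CLIC6, LUM, FAP, GFAP, AQP4, ALDH1L1, SLC1A2, PECAM1, CDH5 and VWF, were chosen after their values were seen. Alternatives were size factors of DESeq2 1.42.0, upper-quartile factors, the library total, other filters, a 4-fold bound, the point ratio alone, removal of 86 ribosomal protein genes, summed rows and removal of the transcript length trend (lowess, statsmodels 0.14.6).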

Additional observations from a re-analysis of the deposited data

How the results depend on the processing

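The number of members called higher was 5 under the 3 other scalings, the filters at 1 CPM and none, the point ratio alone, removed ribosomal protein genes, summed rows and removed length trend. With the library total 6 members were measured, and under the other settings just named 7. The number higher was 4 of 4 measured with a filter at 20 CPM and 3 of 7 with a 4-fold bound. The number called lower was 1, and 0 under each of 3 settings, a 20 CPM filter, the library total and a 4-fold bound, each through SMOC2. No member's log2 ratio changed sign under the 11 alternatives. SPARC (2.20) and SPOCK1 (2.12) left their counting intervals with the library total. Over all genes, 1684 were higher with a filter at 20 CPM, under which fewer genes were measured. With a 4-fold bound 1236 were higher and 983 lower of the same 13535 measured genes. Of 36 counts of higher or lower genes in the lists, 10 moved by more than 1.5 times with the 4-fold bound and 7 with the library total, and smaller moves are not in these numbers. No mitochondrial gene rows were found to remove. No paired analysis was possible because each group had 1 library. Depth limits the hESC side: 4 members rested on 35 to 65 hESC reads, and the Poisson interval of 0 hESC reads reaches 0.212 CPM. A floor of 3 reads is 0.173 CPM in the hESC library and 0.110 CPM in the NPC library.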
